A study of Homo sapiens with 10 samples.

Results

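Of the 10631 genes with a listed edit in the series, 8 are described here: HMGCS1, IDI1, FDPS, FDFT1, SQLE, LSS, EBP and DHCR7, enzymes of cholesterol synthesis picked by gene symbol and not by any measured value. Each of the 8 was listed in at least 1 library, and FDFT1 had no row in the MDA-MB-231 files used here. Libraries with HEK293T Ribo-STAMP listed 7, 7 and 6 of the 8 genes and those with APOBEC1-only 5, 5 and 1. MDA-MB-231 libraries listed 5 and 7 of them with CoCl2 and 7 and 7 untreated.

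In Ribo-STAMP, RPS2 of the ribosome's small subunit is joined to APOBEC1, which deaminates cytidine, and C-to-U edits accumulate on mRNA as ribosomes pass. Long reads then assign each edit to an isoform. HEK293T, an embryonic kidney line carrying the SV40 large T antigen, held a doxycycline-inducible vector for Ribo-STAMP (n = 3) or for unfused APOBEC1 (APOBEC1-only, n = 3), each induced for 72 h at 1 ug/mL. The triple-negative breast cancer line MDA-MB-231 held the Ribo-STAMP vector induced for 48 h at 1 ug/mL in all 4 libraries, with 100 uM CoCl2 for 48 h (n = 2) or without it (untreated, n = 2). CoCl2 blocks the breakdown of hypoxia-inducible factors and is used to mimic low oxygen. No MDA-MB-231 library with unfused APOBEC1 was analysed here, so the background of the editor is not known in that line. The labels number the replicates without saying that they were separate cultures, so p-values measure only the spread between libraries, which may be technical. The 2 lines differed in library kit, and in induction time, and were not compared by a test.

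Cholesterol is built from acetyl-CoA. HMGCS1 condenses acetoacetyl-CoA to HMG-CoA early on, IDI1 interconverts the isoprene building blocks, and FDPS joins them to farnesyl diphosphate, from which prenylation, dolichol and ubiquinone synthesis also start. FDFT1 commits farnesyl diphosphate to squalene, SQLE puts an oxygen atom on squalene, LSS closes the rings to lanosterol, EBP shifts a ring double bond and DHCR7 makes the last reduction to cholesterol. SQLE is the member that uses molecular oxygen, as do CYP51A1, MSMO1 and SC5D later in the pathway. Transcription of most of these genes is driven by SREBP factors when sterol is short.

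Reads on the listed isoforms numbered 157544 to 203094 in Ribo-STAMP and 81591 to 110526 in APOBEC1-only HEK293T libraries, and 1120240 to 1204720 with CoCl2 and 1135890 to 1137590 untreated in MDA-MB-231. Of 7 marker genes of MDA-MB-231, 7 were listed in that line and 2 in HEK293T. Of 6 marker genes of HEK293T, 5 were listed in that line and 2 in MDA-MB-231. As a check of the treatment, 12 hypoxia-responsive genes were tested in coverage by limma. BNIP3, BNIP3L, LDHA, PGK1, ENO1 and ADM, 6 of the 12, were higher with CoCl2 than untreated, also with the length trend described below removed. Over all genes 24.5% were higher, and 9.06% with that trend removed. Coverage of SLC2A1 was lower only before that removal. In edited reads per gene 4 of 10 tested genes of this list were higher, and 3 with the trend removed.

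The edited positions of the set in MDA-MB-231 are shown by the most edited ones, since they show which bases of an enzyme's message were listed as edited. No library of that line without the editor was analysed here to tell edits from variants or read errors, and 53.1% of the positions rested on 1 edited read. All 448 listed positions of the 7 genes fell in the coding sequence of GRCh38 (GENCODE 29), and all 448 were a C on the coding strand. Only coding edits were listed, and a transcript that placed the position in its coding sequence was taken. The match thus checks the genome build and strand, not where edits fall. In that build FDPS lies on the plus strand of chromosome 1 from 155308748 to 155320666 and EBP on the plus strand of chromosome X from 48521158 to 48528716. On minus strands lie IDI1 (chromosome 10, 1039152 to 1049170), LSS (chromosome 21, 46188141 to 46228824), DHCR7 (chromosome 11, 71428193 to 71452868) and HMGCS1 (chromosome 5, 43289395 to 43313512). DHCR7 had 168 of the positions, FDPS 89, LSS 79, EBP 75, IDI1 20, SQLE 12 and HMGCS1 5. The windows below are cut from the spliced transcript, in the sense of the mRNA with T for U, and the capital is the edited C.
FDPS, chromosome 1, position 155320538: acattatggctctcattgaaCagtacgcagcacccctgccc
EBP, chromosome X, position 48528432: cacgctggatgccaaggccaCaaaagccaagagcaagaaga
EBP, chromosome X, position 48523846: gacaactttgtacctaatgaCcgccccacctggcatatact
DHCR7, chromosome 11, position 71435582: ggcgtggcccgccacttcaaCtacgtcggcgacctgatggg
DHCR7, chromosome 11, position 71441253: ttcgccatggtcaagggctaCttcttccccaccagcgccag
IDI1, chromosome 10, position 1044015: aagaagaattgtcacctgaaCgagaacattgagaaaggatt
LSS, chromosome 21, position 46216512: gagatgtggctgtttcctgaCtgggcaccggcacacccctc
In each of these 7 windows the base before the capital is an A. Over the 448 positions, 362 (80.8%) followed an A or a U. Among all C in the coding sequence of the 7 main transcripts this share was 44.8%. Preference for such a base before the target is a known property of APOBEC1.

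The FDPS position stood at codon CAG, which the edit turns into the stop codon TAG. It carried 7 edited of 146 reads (4.79%, exact Clopper-Pearson 95% interval 1.95 to 9.63%) and 5 of 91 (5.49%, 1.81 to 12.4%) with CoCl2, and 1 of 19 (5.26%, 0.133 to 26.03%) in untreated replicate 1. Untreated replicate 2 did not list it. The intervals overlap almost wholly, and like the others given here they account for counting error alone, as several reads can stem from 1 molecule. EBP position 48528432, where ACA becomes ATA, had 5 of 307 reads (1.63%) and 6 of 258 (2.33%) edited with CoCl2, and 1 of 181 (0.552%) in untreated replicate 2. The DHCR7 position 71435582, silent within an AAC codon, had 3 of 238 reads (1.26%) edited in CoCl2 replicate 2, and 6 of 294 (2.04%) and 3 of 298 (1.01%) untreated. The IDI1 position had 2 of 64 reads (3.12%) and 3 of 43 (6.98%) edited with CoCl2, and 1 of 80 (1.25%) in untreated replicate 2. None of these shares was separated from the others by its interval. The files list no position in all 4 libraries of the line, so a position missing from a library cannot be read as unedited there.

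Of the 448 positions of the 7 genes, 268 were listed in 1 library, 113 in 2 and 67 in 3. Over all genes of the line, 235383 positions were listed in 1 library, 72543 in 2 and 39893 in 3. EBP was the gene with the largest share of its coding C listed, at 37.7% (75 positions), and DHCR7 followed at 34.98%. Then came FDPS at 22.7%, IDI1 at 12.5%, LSS at 10.4%, SQLE at 3.27% and HMGCS1 at 1.32%, each for the main transcript. A gene with more covering reads has more chances to be listed, so this order is not one of editing alone. Of the 448 edits, 284 were silent, 148 changed an amino acid and 16 made a stop codon. FDPS held 11 of those 16, which took 26 of its 203 edited reads (12.8%). Stop-making positions took 1 of 31 edited reads in IDI1, 7 of 210 in EBP and 5 of 393 in DHCR7, and none was listed in LSS, SQLE or HMGCS1. Of all coding C in the main FDPS transcript, 9.80% would make a stop codon if edited, and 9.38% in IDI1, against 6.29% in HMGCS1, 5.99% in SQLE, 5.71% in LSS, 5.03% in EBP and 3.22% in DHCR7.

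**Figure D1:**
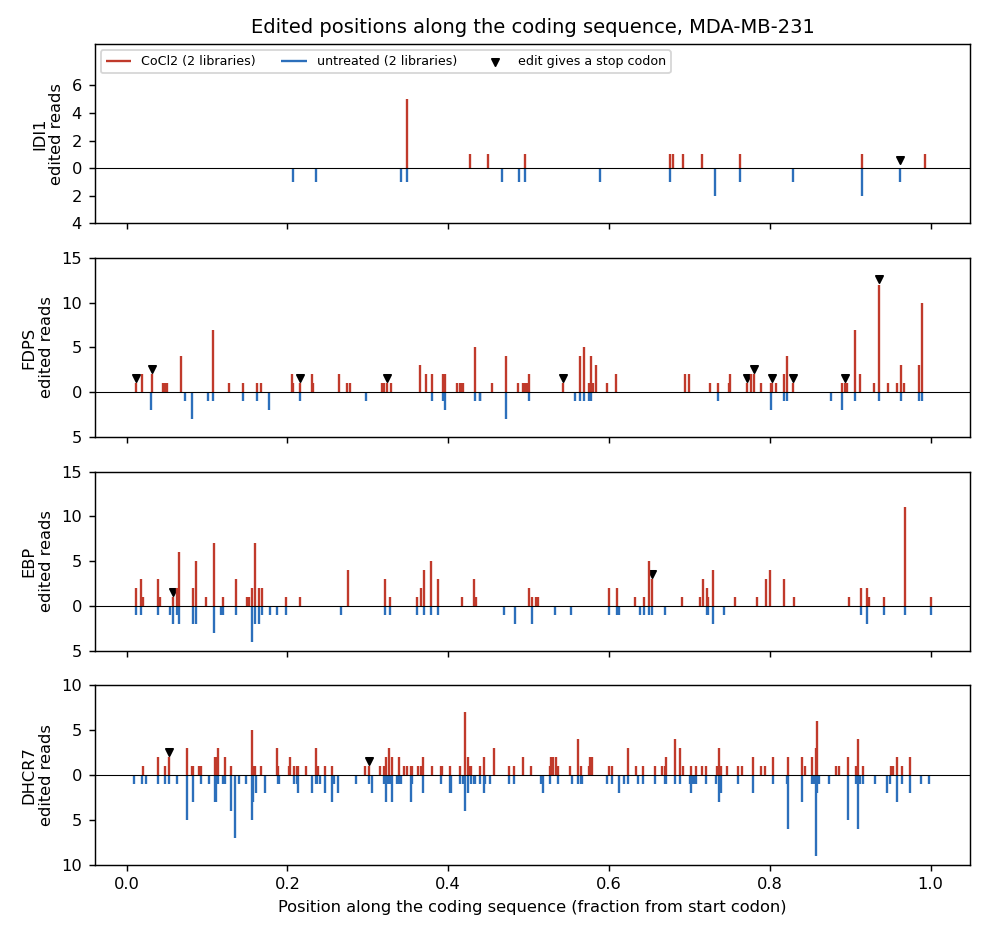
Edited reads at each listed position of IDI1, FDPS, EBP and DHCR7 in MDA-MB-231, along the coding sequence as a fraction from the start codon. Bars above the line are the sum of the 2 CoCl2 libraries and bars below it the sum of the 2 untreated libraries, and triangles mark edits that give a stop codon. Listed edits lay along the whole coding sequence, and 11 of the 89 FDPS positions carry a triangle.

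In HEK293T the comparison of Ribo-STAMP with APOBEC1-only asked how far editing of these messages exceeded that of the free enzyme. SQLE was the member with the most edited reads there: 19, 30 and 12 with Ribo-STAMP, against 4, 3 and 0 with APOBEC1-only. All 3 Ribo-STAMP libraries lay above all 3 APOBEC1-only libraries, as they did for 99.7% of the genes tested. After scaling for depth SQLE averaged 19.5 ± 10.4 reads with an edit in Ribo-STAMP libraries and 2.21 ± 1.95 in APOBEC1-only libraries (SD, n = 3 each), a log2 change of 2.84 ± 0.63 (SE; adjusted p = 4.43e-05, limma on log2(value + 1)). Of the 654 genes tested, 652 (99.7%) were higher and 1 (0.153%) lower, with a median log2 change of 3.75. A gene had to have 10 edited reads in 3 libraries, and SQLE, the 1 member of 8 that had them, did so in the 3 Ribo-STAMP libraries alone. The minimum thus fixed the direction of its test beforehand, and the share of 99.7% is one among genes picked in that way. With no minimum, 2265 of 7004 genes (32.3%) were higher and 0% lower by limma, SQLE among them (adjusted p = 0.000752). Under TMM scaling of the edited reads, which takes out a difference shared by most genes, the SQLE change was -0.20 (adjusted p = 0.931, limma).

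The other members had few edits in HEK293T, and their low totals set what can be said. LSS had 10, 7 and 4 edited reads with Ribo-STAMP, against 1, 2 and 0 with APOBEC1-only. DHCR7 had 3, 8 and 5 with Ribo-STAMP, against 2, 1 and 0 with APOBEC1-only. FDFT1 had 3, 5 and 8 with Ribo-STAMP, and 1 in each APOBEC1-only library. For these genes the groups did not overlap. IDI1 had 2, 4 and 2 with Ribo-STAMP, against 0, 1 and 0 with APOBEC1-only, again without overlap. Of all 7004 genes listed in the line, 35.7% had every Ribo-STAMP library above every APOBEC1-only library and 0.0428% the reverse. HMGCS1 had 2, 1 and 0 with Ribo-STAMP, against 1, 0 and 0 with APOBEC1-only. FDPS had 2, 2 and 0 with Ribo-STAMP and 0 in every APOBEC1-only library, and EBP had a single edited read, in Ribo-STAMP replicate 3. With no minimum on reads, limma called LSS (log2 change 2.01, adjusted p = 0.0124) and DHCR7 (1.69, adjusted p = 0.0401) higher besides SQLE, and left IDI1 (1.45, adjusted p = 0.0835) and FDFT1 (1.495, adjusted p = 0.0602) short of the threshold. That is 3 of 8 members called, beside 32.3% of all genes at this setting.

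**Figure D2:**
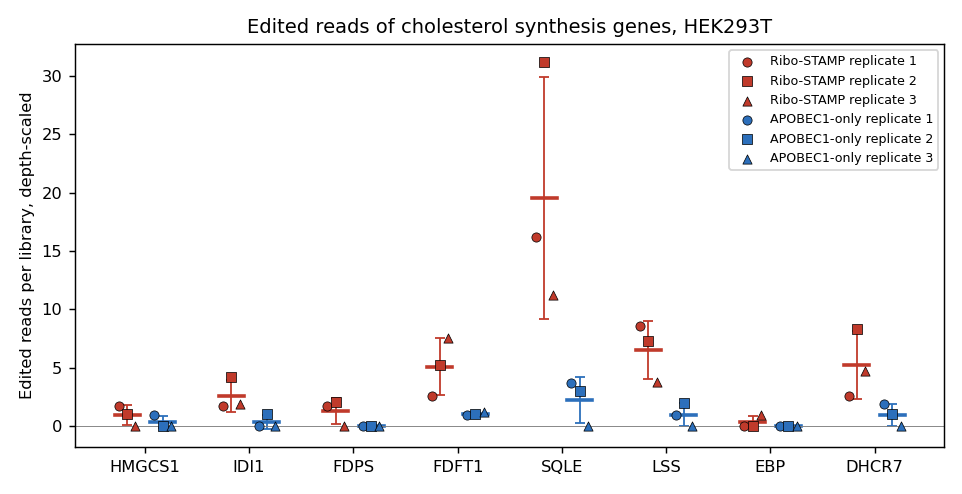
Depth-scaled edited reads of the 8 genes in each HEK293T library, Ribo-STAMP (red) left of APOBEC1-only (blue), with bars for the mean and whiskers for the SD of 3 libraries. SQLE is the highest gene with Ribo-STAMP, at 11.2 to 31.2 edited reads, while HMGCS1, FDPS and EBP lie near 0 in both groups.

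Editing per covering read could be tested in HEK293T for FDFT1, whose isoform was listed in all 6 libraries. With Ribo-STAMP it had 3, 5 and 8 edited reads at a coverage of 17, 32 and 28 reads, against 1, 1 and 1 at 69, 63 and 21 with APOBEC1-only. Per 100 covering reads this came to 17.6, 15.6 and 28.6 with Ribo-STAMP, against 1.45, 1.59 and 4.76 with APOBEC1-only. The log2 ratio of edited to unedited reads was higher with Ribo-STAMP by 2.74 ± 0.54 (SE; adjusted p = 0.000235, limma). Of 392 genes tested, 375 (95.7%) were higher and 0% lower, with a median of 3.47, so the FDFT1 difference was below that of the median gene, and with each library centred on its median gene it was -0.63 (adjusted p = 0.358). An isoform has to be edited in every APOBEC1-only library to enter this test. In FDFT1 that rested on 1 position with 1 edited read of 69, 63 and 21 reads in the 3 APOBEC1-only libraries, which no Ribo-STAMP library listed. Among the libraries that listed SQLE, this measure was 13.6, 33.0 and 20.3 with Ribo-STAMP, against 3.33 and 2.65 in APOBEC1-only replicates 1 and 2. IDI1 had 4.76, 8.16 and 10.5 per 100 covering reads with Ribo-STAMP, against 1.82 in the 1 APOBEC1-only library that listed it. This measure adds up all positions of a gene, and IDI1 has 160 coding C against 367 in SQLE, so it does not rank the genes. Per 1000 covered coding C, IDI1 had 0.298, 0.510 and 0.658 with Ribo-STAMP, and SQLE 0.370, 0.898 and 0.554.

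Among the 13 other enzymes of the pathway, 9 were listed in HEK293T and 1 had enough edited reads to be tested. That was LBR, a sterol reductase of the inner nuclear membrane, with 90, 45 and 33 edited reads with Ribo-STAMP against 2, 6 and 1 with APOBEC1-only (log2 change 3.81, adjusted p = 1.59e-07, limma). Like SQLE, it met the minimum through its Ribo-STAMP libraries alone. Of the oxygen-using enzymes, CYP51A1 had 11, 11 and 8 edited reads with Ribo-STAMP and none with APOBEC1-only, MSMO1 had 3, 2 and 1 with Ribo-STAMP and none with APOBEC1-only, and SC5D 4, 0 and 0 with Ribo-STAMP, against 1, 0 and 0 with APOBEC1-only.

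In MDA-MB-231 the comparison of CoCl2 with untreated cells asked how a chemical mimic of hypoxia changed the edits and the messages. FDPS had 82 and 78 edited reads with CoCl2, against 25 and 18 untreated. EBP had 87 and 59 with CoCl2, against 24 and 40 untreated. The groups did not overlap in either gene, nor did they, on the higher side, in 41.3% of the 4097 genes tested. Scaled for depth, FDPS averaged 84.4 ± 0.19 edited reads with CoCl2 and 20.4 ± 4.56 untreated (SD, n = 2 each), and EBP 76.7 ± 18.0 with CoCl2 and 30.4 ± 10.9 untreated. By limma the log2 change was 2.01 ± 0.34 for FDPS (SE; adjusted p = 0.0298) and 1.33 ± 0.37 for EBP (adjusted p = 0.0368). Over all genes 495 of 4097 (12.1%) were higher and 119 (2.9%) lower, with a median of 0.19, and of the 4 members with enough reads 2 were higher and 0 lower. When the trend with transcript length was removed, 2.18% of genes were higher and 1.3% lower, and neither member passed, with 0.96 for FDPS (adjusted p = 0.136) and 0.69 for EBP (adjusted p = 0.221). Leaving out either CoCl2 library also ended both calls (adjusted p 0.137 to 0.274), at changes of 2.01 to 2.02 for FDPS and 1.09 to 1.57 for EBP, where the lone CoCl2 library was assumed to vary like the others.

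The end of the pathway and its middle gave other values. DHCR7, the most edited member, had 83 and 104 edited reads with CoCl2, against 106 and 100 untreated, and its log2 change was 0.01 ± 0.29 (95% interval -0.64 to 0.65; adjusted p = 0.991, limma), with a sign that turned under TMM scaling (-0.19). LSS had 23 and 13 with CoCl2, against 61 and 14 untreated, with a log2 change of -0.59 ± 0.59 (adjusted p = 0.467). The high LSS value was that of untreated replicate 1 alone. Without untreated replicate 1 the LSS change turned to 0.43, and without untreated replicate 2 it was -1.60. IDI1 had 8 and 7 edited reads with CoCl2, against 9 and 7 untreated. SQLE had 0 and 3 with CoCl2, against 5 and 7 untreated, and HMGCS1 0 and 2 with CoCl2, against 1 and 2 untreated. The SQLE groups did not overlap, as was so, on the lower side, for 20.05% of all 9753 genes listed in the line. These 3 genes were below the minimum for the test. With no minimum on reads none of them was called (SQLE -1.68, adjusted p = 0.377, limma), and neither was any other gene.

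**Figure D3:**
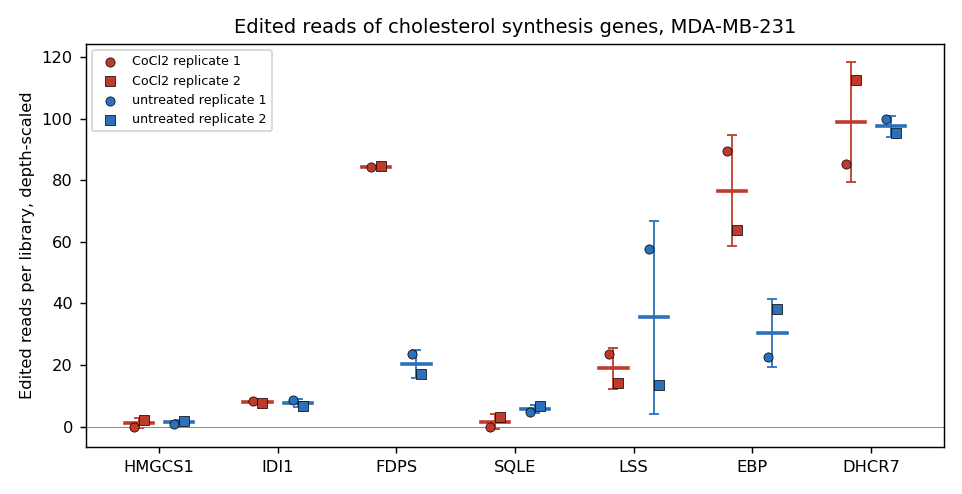
Depth-scaled edited reads of the 7 listed genes in each MDA-MB-231 library, CoCl2 (red) left of untreated (blue), with bars for the mean and whiskers for the SD of 2 libraries. FDPS and EBP lie higher with CoCl2, DHCR7 near 100 in both groups, and LSS spreads between its 2 untreated libraries.

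Coverage of the isoforms listed in all 4 libraries served as a stand-in for mRNA abundance. In bulk RNA a change in message per cell and a change in the makeup of the culture cannot be told apart. FDPS had 167 and 158 scaled reads with CoCl2, against 68.0 and 71.7 untreated, a log2 change of 1.21 ± 0.24 (SE; adjusted p = 0.00209, limma). EBP had 316 and 282 with CoCl2, against 119 and 171 untreated (1.06 ± 0.23, adjusted p = 0.00269). IDI1 went the other way, with 65.8 and 46.9 with CoCl2, against 133 and 75.5 untreated (-0.84 ± 0.30, adjusted p = 0.0292). FDPS and EBP were higher and IDI1 lower, with no overlap between the groups in any of them. The groups did not overlap in LSS and DHCR7 either, both on the lower side, though neither was called. Over all genes the groups did not overlap in 38.9% on the higher side and 39.2% on the lower side. LSS had 20.6 and 21.8 with CoCl2, against 69.9 and 25.5 untreated (-0.97 ± 0.40, adjusted p = 0.0561), with untreated replicate 1 far above the other 3 libraries. DHCR7 had 244 and 271 with CoCl2, against 286 and 304 untreated (-0.20 ± 0.21, 95% interval -0.63 to 0.24, adjusted p = 0.440).

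Calls of this kind were common, with 1388 of 5673 genes (24.5%) higher and 1076 (19%) lower, and of the 5 tested members 2 were higher and 1 lower. Leaving out either CoCl2 library ended all 3 member calls, with adjusted p between 0.189 and 0.379 for FDPS, EBP and IDI1, and 0 genes of 5673 were then called higher. Leaving out untreated replicate 1 ended the IDI1 call, at a change of -0.43. Without untreated replicate 2 the LSS change was -1.68, which then rested on untreated replicate 1, the highest LSS library.

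**Figure D4:**
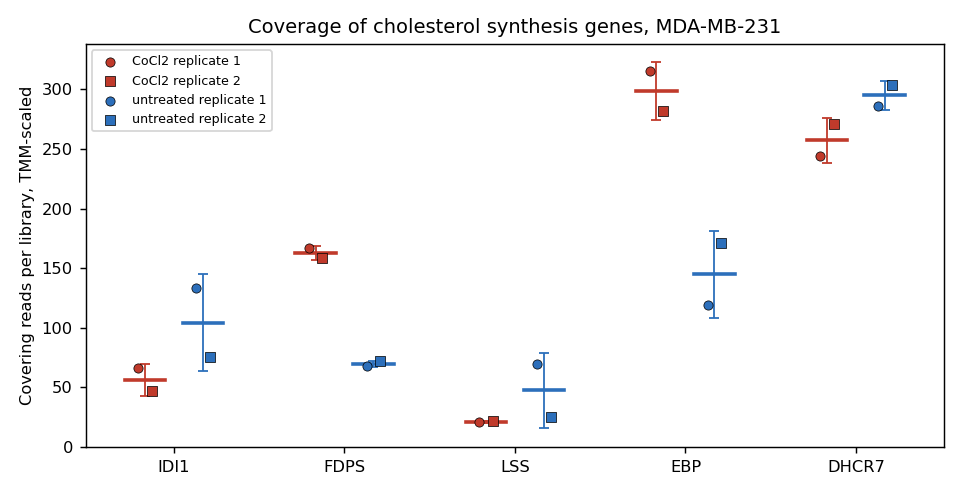
TMM-scaled coverage of the 5 genes whose isoforms were listed in all MDA-MB-231 libraries, CoCl2 (red) left of untreated (blue), with bars for the mean and whiskers for the SD of 2 libraries. FDPS and EBP are higher and IDI1 is lower with CoCl2, and untreated replicate 1 is the highest IDI1 and LSS library.

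Across all genes the coverage change moved with transcript length: it fell by 0.52 on the log2 scale for each doubling of length over 5631 genes. The members' lengths, weighted by reads, were 1252 bases for FDPS, 1775 for EBP, 2301 for IDI1, 2663 for DHCR7 and 4936 for LSS. The higher genes were thus also the shortest. With the trend removed within each library, EBP still passed (0.66 ± 0.18, adjusted p = 0.0282, limma), against a background of 9.06% higher and 7.12% lower. FDPS, at 0.46 (adjusted p = 0.129), no longer passed, nor did IDI1, although its change of -0.82 (adjusted p = 0.0641) was almost that of the uncorrected fit. LSS was at -0.45 (adjusted p = 0.403) and DHCR7 at 0.06 (adjusted p = 0.825). The part of read length or RNA integrity in these changes was not tested.

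**Figure D5:**
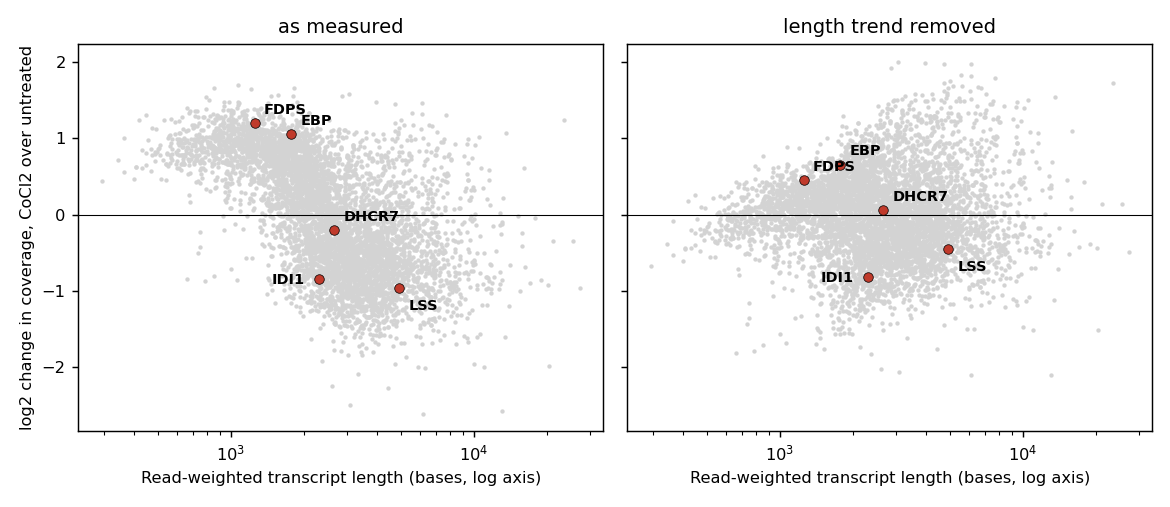
Log2 change in coverage, CoCl2 over untreated, against read-weighted transcript length in bases (log axis) for all genes (grey) and the 5 tested members (red), as measured on the left and with the length trend removed on the right. FDPS and EBP lie among short genes with higher coverage on the left, and FDPS comes closer to 0 on the right, at 0.46.

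FDPS was read from 4 isoforms in every library. The main one, ENST00000467076.5 of 1178 bases, had 84 and 79 covering reads with CoCl2, against 33 and 44 untreated, before scaling. The longer ENST00000368356.9, of 1431 bases, had 30 and 24 with CoCl2, against 15 and 12 untreated. ENST00000356657.10 had 16 and 12 with CoCl2, against 5 and 5 untreated, and ENST00000612683.1 had 32 and 30 with CoCl2, against 19 and 15 untreated. Each of the 4 was higher in both CoCl2 libraries than in both untreated ones. The share of all isoforms that separate in this way was not counted. In coverage per gene 38.9% of genes did so on the higher side. FDPS has 8 named pseudogenes in GENCODE 29, and how reads shared with them were assigned is not given in the sources used here, so its counts are less certain than those of the other members, for which none is named there. EBP and IDI1 were each read from 1 isoform. Antisense or other genes overlap every member except SQLE in the annotation, and whether counting used strand is not given either.

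Editing per covering read, which takes coverage out, gave no call for any gene: 0 of 5673 were higher and 0 lower by limma (0% each), with 421 higher and 64 lower at an unadjusted p under 0.05. IDI1 carried 12.5 and 16.3 edited reads per 100 covering reads with CoCl2, against 6.38 and 8.75 untreated. FDPS carried 49.4 and 53.1 with CoCl2, against 34.7 and 23.7 untreated. The groups did not overlap in either gene, nor in EBP below, beside 30.1% of all genes on the higher side and 9.64% on the lower. The IDI1 values rest on 7 to 9 edited reads per library. In the log2 ratio of edited to unedited reads the difference was 0.94 ± 0.38 for IDI1 (95% interval 0.06 to 1.82, adjusted p = 0.571) and 0.81 ± 0.46 for FDPS (-0.25 to 1.88, adjusted p = 0.634).

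EBP carried 28.3 and 22.9 edited reads per 100 covering reads with CoCl2, against 19.0 and 22.1 untreated (0.30 ± 0.28, interval -0.35 to 0.95). DHCR7 carried 34.6 and 41.9 with CoCl2, against 34.98 and 31.1 untreated (0.19 ± 0.25, interval -0.38 to 0.77). LSS, with the fewest covering reads of the 5, carried 110 and 50 with CoCl2, against 67.6 and 44.4 untreated (0.46 ± 0.54, interval -0.78 to 1.69). Since a gene's edits at all positions are added up, a value can pass 100. The difference was positive in 5 of 5 members, with a median of 0.46, beside 67.4% positive and a median of 0.20 over all genes. It was positive in 7 of the 13 other enzymes of the pathway, with a median of 0.04. These intervals leave room for differences of more than 1.5 on the log2 scale in IDI1, FDPS and LSS.

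Counting per coding C allows for the number of C in a gene, but not for the base before each C. An A or a U preceded 37.5% of coding C in LSS and 47.5% in IDI1, so ranks by this measure are rough. FDPS carried 1.79 and 1.95 edited reads per 1000 covered coding C with CoCl2, against 1.26 and 0.874 untreated. Its mean lay at the 87.5th percentile of 5630 genes. EBP carried 1.42 and 1.15 with CoCl2, against 0.957 and 1.11 untreated (77.9th percentile), and LSS 1.65 and 0.751 with CoCl2, against 1.01 and 0.667 untreated (70.7th). DHCR7 had 0.742 and 0.900 with CoCl2, against 0.751 and 0.666 untreated, and IDI1 had 0.781 and 1.02 with CoCl2, against 0.399 and 0.547 untreated. Taken over both conditions, their means lay near that of the median gene, which had 0.760 and 0.720 with CoCl2 and 0.627 and 0.646 untreated. Within a condition IDI1 averaged 0.899 with CoCl2, above the 0.740 of the median gene, and 0.473 untreated, below its 0.637. In HEK293T, FDFT1 carried 0.577, 0.511 and 0.934 with Ribo-STAMP, against 0.0474, 0.0519 and 0.156 with APOBEC1-only (42.5th percentile of 386 genes). The median gene there had 0.746, 0.769 and 0.702 with Ribo-STAMP, against 0.0519, 0.0502 and 0.0617 with APOBEC1-only.

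SQLE and HMGCS1 were too thinly read in MDA-MB-231 for coverage in every library. SQLE was covered by 12 reads in CoCl2 replicate 2 and not listed in CoCl2 replicate 1, against 44 and 26 untreated. The other enzymes that use oxygen had a mean coverage below the untreated mean. CYP51A1 had 30.8 and 28.4 scaled reads with CoCl2, against 55.7 and 50 untreated (-0.81, adjusted p = 0.0386, limma), and SC5D 31.9 and 26.2 with CoCl2, against 61.4 and 45.3 untreated (-0.85, adjusted p = 0.0375). Both fell. MSMO1 had 21.6 and 10.9 with CoCl2, against 31.2 and 19.3 untreated (-0.64, adjusted p = 0.222). With the length trend removed none of these 3 genes passed, at a median change of -0.64, with CYP51A1 at -0.36.

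Of the 13 other enzymes of the pathway, 3 rose in coverage with CoCl2, 3 fell and 7 did not pass. Over all genes 24.5% were higher and 19% lower. With the length trend removed these shares were 9.06% and 7.12%. ACAT2, which makes acetoacetyl-CoA for HMGCS1, had 371 and 325 scaled reads, against 171 and 206 untreated (0.88, adjusted p = 0.00453, limma), and its change was 1.34 (adjusted p = 0.00213) with the length trend removed. PMVK (0.98) and MVD (0.69), kinase and decarboxylase of the mevalonate branch, rose before that correction only, and LBR (-0.82) fell before it only. In the SREBP and cholesterol uptake list, NPC2, which carries cholesterol out of lysosomes, rose and MBTPS1 and MBTPS2, the proteases that release SREBP, fell, among 8 tested, and none passed with the trend removed. Of 6 tested genes that use farnesyl diphosphate for other ends, DHDDS and FNTB fell, and DHDDS, a subunit of the dolichol-making transferase, also did with the trend removed (-1.70, adjusted p = 0.0108). Of 3 tested fatty acid synthesis genes, ACLY and ACSS2 fell, before the correction only. In edited reads per gene ACAT2 was called higher only with the trend removed (1.34, adjusted p = 0.0392), and NPC2 (1.66, adjusted p = 0.0348) only without that step. No other gene of these 4 lists was called.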

How the data were processed

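PolyA RNA of the 10 libraries was sequenced by PacBio long reads, per the labels' protocols. Each deposited file pairs edited and covering read counts for a coding position in an isoform; as no header says so, this reading of the pair, and its unit (a value of 2 counts in 1 cell), was taken from the numbers themselves. Only edited positions are listed. Per the submitters' processing notes, the builds were hg19 and hg38, with no role for either. Aligner, edit caller and strand setting: not given in the sources used here. MDA-MB-231 coordinates matched GRCh38, those of HEK293T did not and are not printed. Sequences were cut from GENCODE 29 transcripts.

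Edited reads were summed per gene and divided by relative depth (median ratio of isoform coverage over the 405 HEK293T or 7313 MDA-MB-231 isoforms that all libraries of that line list). Coverage was the sum over those isoforms of their median coverage, scaled by trimmed means of M-values (TMM; trims of 30 and 5%). Editing per covering read was log2((edited + 0.5)/(unedited + 0.5)). The minimum per gene was 10 edited reads in 3 (HEK293T) or 2 (MDA-MB-231) libraries, or a mean coverage of 10. Each test was limma 3.58.1 with an intensity trend (R 4.3.3), two-sided, on log2(value + 1) or the log ratio, with Benjamini-Hochberg adjustment over all genes tested and a threshold of 0.05. For genes with few reads the added 1 makes the change look smaller. The fit was tested on simulated data. The length trend was a lowess curve removed within each library, over genes with an annotated length (99.2% in MDA-MB-231). For edited reads this step was chosen after seeing the data.

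All 8 members are named, and of the other lists the genes past the threshold and those that use oxygen. Some genes of those lists are not reported here. Positions shown are among the 2 with the most edited reads per gene. Members and lists were chosen with earlier results of these data known. A planned search for genes with the most similar coverage profile gave only ties and is not reported.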

Additional observations from a re-analysis of the deposited data

How the results depend on the processing

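In HEK293T, TMM scaling of edited reads, which removes a global difference, left 25 genes higher and moved SQLE to -0.20 (adjusted p = 0.931); centring the libraries on the median gene left 73 genes higher and 53 lower in editing per covering read and moved FDFT1 to -0.63 (adjusted p = 0.358). With no minimum on reads 2265 of 7004 genes were higher in edited reads. The 1 gene called lower was lost (0 genes) with limma-voom, no minimum, the number of positions, at least 20 covering reads, under 50% edited and a pseudocount of 5, and leaving out 1 library gave 0 to 1. For editing per read, leaving out 1 library gave 0 to 1 genes lower. FDFT1 could not be tested with at least 20 covering reads.

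In the CoCl2 comparison, edited reads gave 212 genes higher and 200 lower under TMM scaling, 0 and 0 with no minimum, 131 and 57 by number of positions, 125 higher with at least 20 covering reads, 207 lower with a pseudocount of 5, and 89 and 53 with the length trend removed. Leaving out 1 library gave 0 to 1092 higher and 0 to 581 lower. Coverage gave 510 higher and 401 lower with the length trend removed, and 0 to 1976 higher and 1 to 1827 lower without 1 library. The FDPS call in edited reads was lost with no minimum, with length removed and without either CoCl2 library (adjusted p 0.136 to 0.222), and the EBP call also under TMM scaling, by number of positions and with at least 20 covering reads (adjusted p 0.0595 to 0.274). DHCR7, near 0, changed sign in edited reads under TMM scaling (-0.19), by number of positions (-0.00041), with at least 20 covering reads (-0.059), with under 50% edited (-0.0025), and without CoCl2 replicate 2 (-0.19) or untreated replicate 2 (-0.03; -0.19 to 0.21 over the libraries left out), in coverage with length removed (0.064), and in editing per read when centred (-0.0013). LSS ranged from -1.60 (without untreated replicate 2) to 0.43 (without untreated replicate 1) in edited reads and from -0.10 to 1.01 in editing per read, the lowest without CoCl2 replicate 1, and passed in coverage under median-ratio scaling (-0.98, adjusted p = 0.0452). The causes were not tested. Where 1 library was left out, the lone library of a group was assumed to vary like the others.

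Same-numbered libraries did not deviate together in MDA-MB-231 (correlation of their deviations 0.023 for edited reads), and in HEK293T only in part (0.087 to 0.332), so the numbers were not taken as pairs. With the replicate block, 783 genes were higher and 305 lower in MDA-MB-231 edited reads, and LSS coverage passed (-0.97, adjusted p = 0.0251, limma). In the main coverage fit LSS did not pass, and 19% of all genes were lower. The shares under the block and under median-ratio scaling are not given here. LSS coverage was far higher in untreated replicate 1 than in the other libraries. HMGCS1, IDI1 and SQLE in MDA-MB-231 and 7 of the 8 genes in HEK293T had too few edited reads for the test per gene.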
